A study of Homo sapiens with 2 samples.

Results

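C-to-U edit sites in the genes of the translation initiation, elongation and release factors were compared between 2 long-read libraries of HEK293T cells, a human embryonic kidney line. A gene was included where a locus of the deposited isoform models overlapped most, in same-strand exons, a GENCODE protein-coding gene whose symbol begins with EIF or EEF and a digit, or ETF1, GSPT1 or ABCE1. Of 74 annotated symbols of this kind, 63 had such a locus, 1 each, out of 10828 protein-coding genes in all. Both libraries came from cells fixed in methanol and treated with purified APOBEC1, a cytidine deaminase, joined to a nanobody against rabbit IgG. For the RBFOX2 library an anti-RBFOX2 antibody brought the enzyme to RBFOX2, an RNA-binding protein whose preferred motif is UGCAUG. In the enzyme-only library no such antibody was present, which gave the background of editing by the untethered enzyme. The labels call the line HEK293T in the titles and HEK293XT in the cell line field, and give kidney as the tissue. The RBFOX2 library is labelled replicate 2 and the enzyme-only library replicate 1, and no other library of either kind was used. Each comparison is thus between these 2 libraries, in which condition and library preparation cannot be told apart, and no test across samples was possible. Where a pair of values is given, that of the RBFOX2 library comes first. Intervals are exact Clopper-Pearson 95% intervals that cover counting error only, since the tables carry no molecular identifiers.

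Translation of most mRNAs starts when the cap-binding complex EIF4F recruits a small ribosomal subunit that carries EIF3, the scanning factors and the ternary complex of EIF2, GTP and initiator tRNA. After each round EIF2B recharges EIF2 with GTP, and kinases of the EIF2AK family stop this exchange by phosphorylating EIF2S1. Elongation factors then deliver aminoacyl-tRNA and move the ribosome along the message, ETF1 and GSPT1 release the finished chain at the stop codon, and ABCE1 splits the ribosome for the next round. Their mRNAs are among the abundant ones of a proliferating cell.

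The deposited tables list a position with its converted reads and with the reads of the whole gene, and leave out positions at or under an edit fraction of 0.002. Deep genes therefore need more converted reads for a listing than shallow ones, and 53 of the 63 genes, those listed in both tables, were compared at a common minimum, the smallest number of converted reads that passes this fraction in the deeper library. It was 1 read for 34 genes and above 1 for the other 19, up to 17 reads in EIF4A1. The 53 genes held 34762 reads in the RBFOX2 library, against 30992 with the enzyme alone, and their ratio of reads ran from 0.600 to 1.46 with a median of 1.12. Of 6 nephron markers none had an isoform locus, and 3 of 4 markers listed for HEK293 cells had one. Only KRT18 of these 3 was listed in both libraries. VIM was listed in the RBFOX2 table alone, and PAX2 in the enzyme-only table alone with 3 reads.

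Of the other 10 genes, EIF3M, EIF5A, EIF5A2 and EIF5B had isoform models and no listed site. EEF1A1, EEF2, EEF1D and EIF4H were listed in the RBFOX2 table alone, and EIF4G3 and EIF2AK3 in the enzyme-only table alone with 1 site each. For these the reads of the second library are not given, so their difference could not be measured. Of the 11 annotated symbols with no locus of their own, 6 shared a locus that carried another symbol, among them EEF1G, EIF3D, EIF3G and EIF4EBP3. Among the 5 with no overlapping locus were EEF2K, EIF4E1B and EIF5AL1. The loci of 11 of the 63 genes overlapped a second protein-coding gene, EIF1B and EIF4A1 among them. EIF3C and EIF3CL are nearly identical copies whose reads can be exchanged.

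The factor genes held a similar number of sites per read in both libraries. In all, 1010 sites were listed in the RBFOX2 library, against 974 with the enzyme alone, and 163 positions were listed in both under the same gene. At the common minimum and without the shared positions, 837 sites remained in the RBFOX2 library, against 725 with the enzyme alone. That is 24.1 and 23.4 sites per 1000 gene reads. The ratio of the 2 counts was 1.15, against 1.29 for the 100945 and 78429 sites of all protein-coding genes. Scaled by those totals, the log2 ratio of the factor genes was -0.16 (95% interval -0.30 to -0.01).

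Genes with a common minimum of 1 read held 667 and 642 sites, a ratio of 1.04, where other protein-coding genes of that kind had 1.25. Genes with a higher minimum held 170 and 83 sites, a ratio of 2.05 beside 2.00 in other genes. Deep genes of both kinds thus had a higher ratio than shallow ones. Without EIF4G2, which alone gave 34 of the 170, the ratio was 1.66. This gene was chosen for its high ratio, so the lower value without it is a description. The log2 difference of all 19 from other genes of that kind was 0.03 (-0.35 to 0.43).

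The libraries differed more in converted reads than in sites, and this came from the deeper genes. At positions that passed the common minimum and with shared ones kept, factor genes had 50.3 converted reads per 1000 gene reads in the RBFOX2 library. With the enzyme alone they had 37.7. In the 34 genes with a minimum of 1 read the values were close, 99.4 and 97.6. In the 19 deeper genes they were 33.1 and 15.3, where reads at positions under the minimum are left out. Other protein-coding genes with a minimum above 1 had a site ratio of 2.00. Their converted reads were not counted, so the gap is not shown to be particular to the factor genes. EIF4G2, which is among these 19, alone gave 251 of the 1748 converted reads of the RBFOX2 library and 26 of the 1167 with the enzyme alone. Over single genes the direction was split, with 28 of 53 genes higher in the RBFOX2 library and 25 lower.

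**Figure D1:**
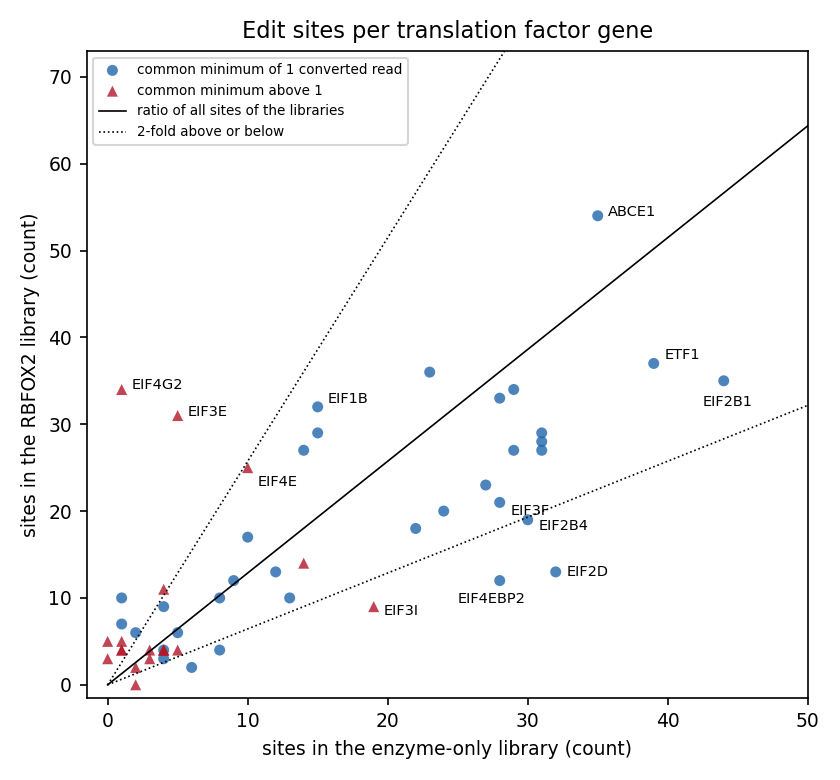
Sites per gene in the RBFOX2 library (y axis, count) against the enzyme-only library (x axis, count) for the 53 genes listed in both, at the common minimum and without shared positions. Most points lie near or below the line of the library totals, while EIF4G2 (34 against 1) and EIF3E (31 against 5) stand above the 2-fold line and EIF2D (13 against 32) and EIF4EBP2 (12 against 28) below it.

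Of the 63 genes, 29 had at least 20 sites in both libraries together. A log2 ratio above 1 was found for 2 of them (6.90%), where 15.6% of the 3403 protein-coding genes with as many sites passed it. A ratio under -1 was found for 4 (13.8%), beside 13.4% of all such genes. Scaled by the reads of each gene in place of the library totals, 4 (13.8%) were above 1 and 3 (10.3%) under -1, so the order of the counts turned, where all genes had 20.9% and 8.67%. The median of the 29 was -0.44 and that of all genes 0.03. The 2 genes above were EIF4G2 and EIF3E, and the 4 below were EIF2D, EIF4EBP2, EIF3I and EIF2B4. The counting interval lay wholly above 0 for EIF4G2 and EIF3E and wholly below 0 for those 4 and EIF2B1. How many of the 3403 genes have such an interval was not counted, so this is a description of single genes.

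**Figure D2:**
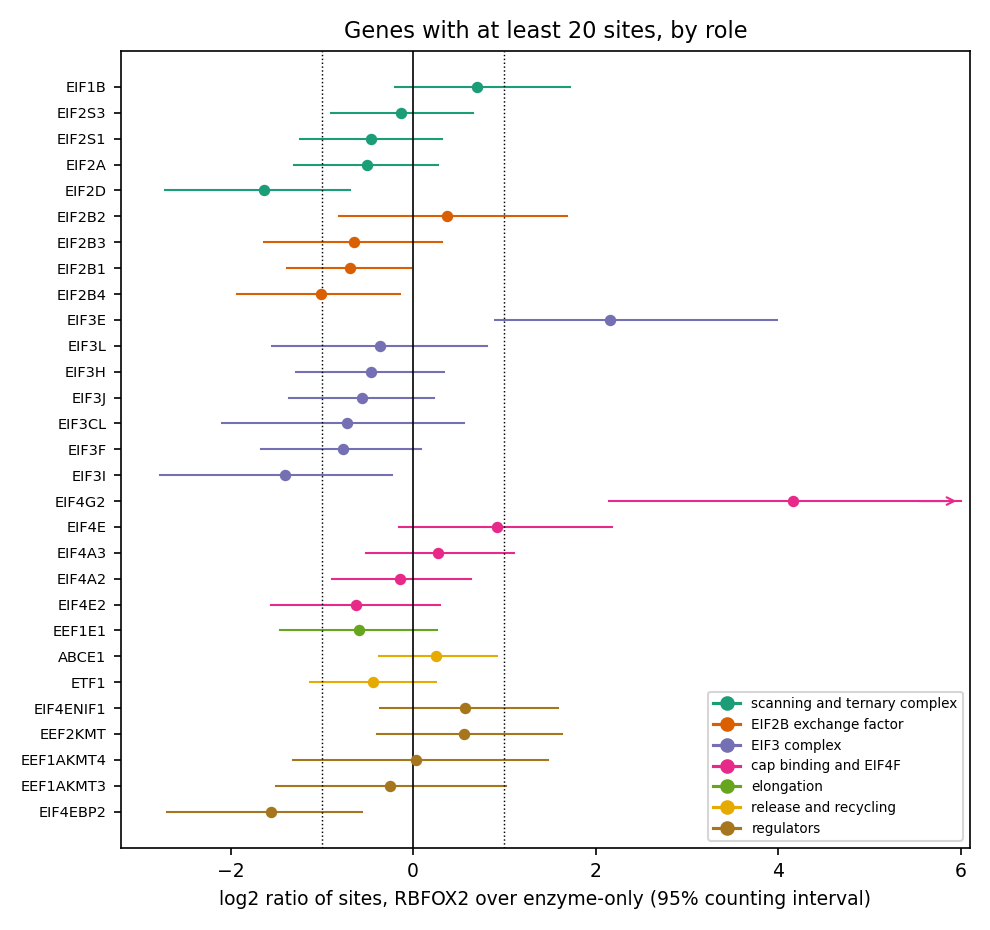
Log2 ratio of sites, RBFOX2 over enzyme-only and scaled by the library totals, for the 29 genes with at least 20 sites, coloured by role; lines are 95% counting intervals and the arrow marks an interval that runs past the axis. EIF4G2 at 4.16 and EIF3E at 2.15 lie right of the dotted line at 1, and EIF2D, EIF4EBP2, EIF3I and EIF2B4 lie left of that at -1.

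In the scanning factors and the ternary complex, 11 genes with both tables held 162 sites in the RBFOX2 library, against 156 with the enzyme alone (log2 ratio -0.31, -0.64 to 0.02). The 3 subunits of EIF2 itself stood close to the library totals. EIF2S1, the subunit that is phosphorylated under stress, had 29 and 31 sites. EIF2S3, which binds GTP, had 33 and 28, and EIF2S2 had 4 in each. None of these differed beyond its counting interval. EIF2D, which can deliver tRNA to the ribosome without GTP, had 13 sites in the RBFOX2 library, against 32 with the enzyme alone at almost the same depth, 140 and 143 reads. Its log2 ratio was -1.63 (-2.72 to -0.69). The gap lay in the coding sequence, with 11 sites against 28, and rested on single reads, since 2 of its RBFOX2 sites and no enzyme-only site had 2 converted reads or more. With such sites alone its ratio turned to 1.45. EIF1B, a close relative of the start-codon selection factor EIF1, went the other way with 32 sites against 15 at 326 and 361 reads (0.70, -0.20 to 1.72). Its 3'UTR held 16 of the 32 and 4 of the 15. EIF1, EIF1AX and EIF5 were deep, with 1393, 1887 and 1631 reads in the RBFOX2 library, and only positions of at least 3 or 4 converted reads could be compared. They had 4, 4 and 5 such sites in the RBFOX2 library and 3, 1 and 1 in the enzyme-only library.

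EIF1B has a UGCAUG in its 3'UTR, at chr3:40312147-40312152 of hg38, and the sites gathered around it in the RBFOX2 library. Within 50 nt of it, 11 of 19 exonic cytosines were listed in the RBFOX2 library, against 2 with the enzyme alone, of which 1 was common to both. The converted reads numbered 12 and 2. The 30 nt around the hexamer (chr3:40312135-40312164, plus strand) are shown because 5 of the listed cytosines lie next to it, with the hexamer and the cytosines listed in the RBFOX2 library in capitals.
EIF1B: uCCauuCacauCUGCAUGauuaCagaaaac
All but 1 of the 11 sites had a single converted read out of 326, and the tables do not say whether several of these edits lay on the same read.

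**Figure D3:**
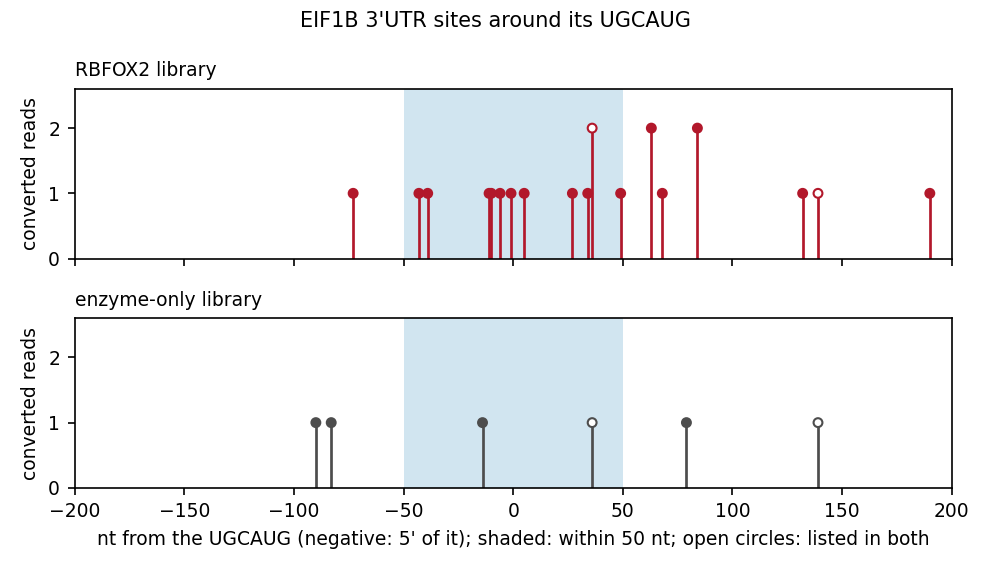
Converted reads (y axis) at the 3'UTR sites of EIF1B by distance in nt from its UGCAUG (x axis, negative values 5' of the motif), with the RBFOX2 library above and the enzyme-only library below. The 11 sites inside the shaded 50 nt of the RBFOX2 library contrast with 2 in the enzyme-only library, and nearly all have 1 converted read.

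The 5 subunits of EIF2B, the exchange factor that EIF2 needs between rounds, held 99 and 107 sites (log2 ratio -0.48, -0.89 to -0.07). EIF2B1 and EIF2B4 were lower in the RBFOX2 library. EIF2B1 had 35 and 44 sites (-0.69, -1.38 to -0.02), and EIF2B4 had 19 and 30 (-1.01, -1.93 to -0.15). EIF2B5, the catalytic subunit, had 10 sites in the RBFOX2 library, against 1 with the enzyme alone at 101 and 90 reads, too few for the limit of 20. EIF2B2 had 17 and 10 (0.37, -0.81 to 1.69) and EIF2B3 18 and 22 (-0.65, -1.64 to 0.31), so the subunits lay on both sides of the library ratio.

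Of the EIF3 complex, the large scaffold that bridges the mRNA and the small subunit, 11 genes gave 154 and 149 sites (-0.32, -0.65 to 0.02). EIF3E, a subunit that contacts EIF4G, stood apart. It had 788 and 698 reads, and at a minimum of 2 converted reads 31 sites in the RBFOX2 library against 5 in the enzyme-only library (2.15, 0.89 to 3.99). Its sites lay in the coding sequence, 28 of 31 and all 5, and its strongest had 5 converted reads. Scaled by other protein-coding genes with a minimum above 1 in place of the totals, the ratio of EIF3E was 1.52. It was 0.75 where shared positions were kept and every gene was held to 2 converted reads. EIF3I showed the reverse at like depth, 993 and 850 reads, with 9 sites against 19 (-1.40, -2.77 to -0.23). EIF3F, EIF3H, EIF3J and EIF3L had ratios between -0.77 and -0.36, each with an interval that includes 0. EIF3CL had 10 and 13 sites and its copy EIF3C 4 and 4. EIF3B illustrates why a common minimum was needed: its table entries numbered 3 and 30, but apart from the position listed in both only 2 in each library had 2 converted reads or more. EIF3A, the largest subunit, had 5 sites against 0 at a minimum of 4 reads. Of its 6 listed sites 5 lay close together in the 3'UTR (chr10:119035835-119035987), with 4 to 6 converted reads each out of 1560, and 1 of them, at chr10:119035930, was also listed in the enzyme-only library with 4 of 1327.

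The cap-binding complex EIF4F and its partners gave 162 sites in the RBFOX2 library, against 95 with the enzyme alone (0.40, 0.03 to 0.79), of which EIF4G2 alone gave 34 and 1. This ratio is scaled by the totals of all genes, whose ratio was 1.29. Other genes with a minimum above 1 had 2.00, so depth can raise the value of a group with deep genes. EIF4G2, also known as DAP5, is a relative of the scaffold EIF4G1 that lacks the part that binds EIF4E, and its mRNA is known as a target of overexpressed APOBEC1 in liver. Its 1118 and 917 reads set a minimum of 3. With shared positions kept, 43 sites passed it in the RBFOX2 library, against 6 with the enzyme alone, and without them 34 and 1. The log2 ratio of 4.16 (2.15 to 10.07) was the third highest of the 3403 genes. Scaled by other genes with a minimum above 1, it was 3.52. The number of sites depended on the common minimum, since 20 further enzyme-only positions had 2 converted reads, and with every listed site the ratio was 0.71. At the common minimum the converted reads numbered 225 per 1000 gene reads against 28.4. The second value leaves out the reads of those 20 positions. Positions with 2 converted reads are not listed in the RBFOX2 library at its depth, so this contrast also depends on the minimum.

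The edits of EIF4G2 covered its 3'UTR. In the RBFOX2 library 33 of the 43 sites lay there, from 53 to 758 nt after the stop codon in a 3'UTR of 762 nt, which is 27.3% of its 121 cytosines. In the enzyme-only library 6 sites did, 4.96%. All 43 and all 6 had A or U just before the cytosine, as do 65 of the 121 cytosines of the 3'UTR. The strongest position, chr11:10797639, was listed in both libraries, with 29 of 1118 reads (2.59%, 1.74 to 3.70) and 11 of 917 (1.20%, 0.600 to 2.14). The next strongest were listed only in the RBFOX2 library. At chr11:10797567 18 reads were converted (1.61%, 0.957 to 2.53) and at chr11:10797564 15 reads (1.34%, 0.753 to 2.20), while the absence of a listing in the enzyme-only library allows at most 1 converted read of 917 (0.109%). At chr11:10797436 the numbers were 12 and 2. At each of the 9 positions listed in both libraries the fraction was higher in the RBFOX2 library. A listing there takes at least 3 of 1118 reads (0.268%). Shared positions with 2 of 917 reads (0.218%), such as chr11:10797436, could thus come out no other way.

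No UGCAUG lies in the exons of EIF4G2. The shorter GCAUG, the core of that motif, occurs once in its 3'UTR, at chr11:10797577-10797581, and 9 sites with 66 converted reads lay within 50 nt of it in the RBFOX2 library, against 1 site with 3 in the enzyme-only library. The 4 strongest sites are shown with the edited cytosine in capitals, and then the 30 nt around the pentamer (chr11:10797565-10797594) with the pentamer and the cytosine listed in the RBFOX2 library in capitals. All are on the minus strand, 5' to 3'.
EIF4G2 10797639: uaaugucuuaauCauagucuaccau
EIF4G2 10797567: augcaauaauuaCaucauaaguucu
EIF4G2 10797564: caauaauuacauCauaaguucucaa
EIF4G2 10797436: ugcucaguaauaCuugaguuguugc
EIF4G2 GCAUG: uaguauauuagcaGCAUGcaauaauuaCau
The strongest site lies 5' of the pentamer and the next 2 lie 3' of it. GCAUG occurs 218 times in the exons of 59 of the 63 genes, and its presence here is a description.

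**Figure D4:**
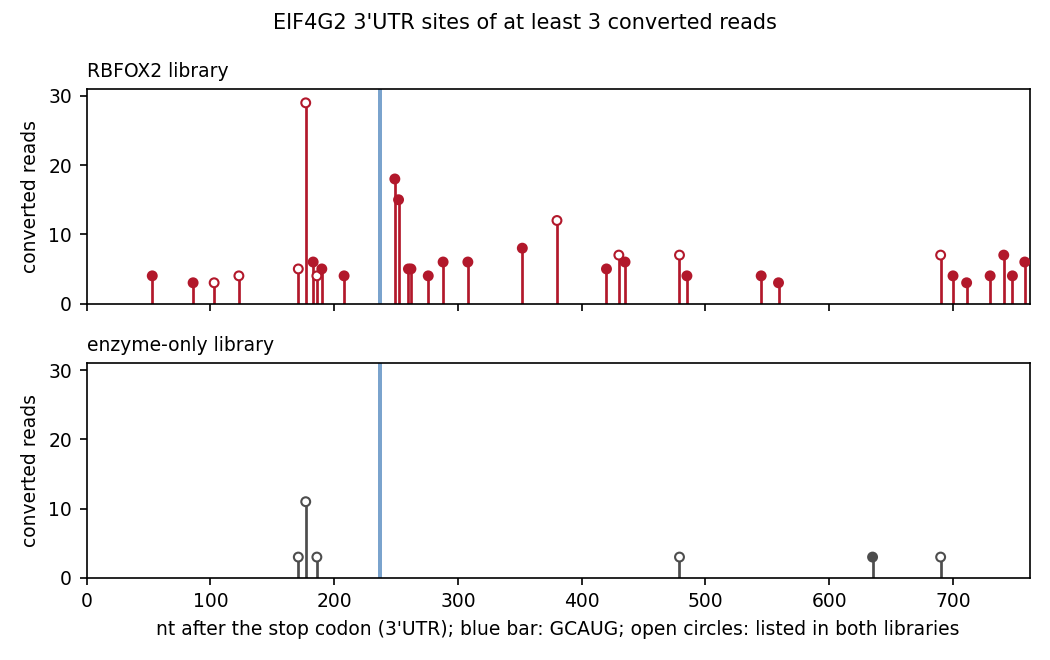
Converted reads (y axis) at EIF4G2 sites of at least 3 converted reads by position in nt after the stop codon (x axis), with the RBFOX2 library above and the enzyme-only library below; the blue bar is the single GCAUG and open circles are positions listed in both. The RBFOX2 library has 33 sites along the whole 3'UTR with a peak of 29 reads, and the enzyme-only library has 6 with a peak of 11.

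The paralogs of EIF4G2 had few sites to compare. EIF4G1 had 4 sites against 1 at 1123 and 1041 reads, and EIF4G3 was listed only in the enzyme-only table. EIF4E, the cap-binding subunit, had 25 and 10 sites (0.92, -0.15 to 2.18), EIF4E2 20 and 24, and EIF4E3 3 and 4. Scaled by other genes with a minimum above 1, EIF4E was at 0.28. Of the helicases, EIF4A3, a core part of the exon junction complex, had 36 and 23 sites, and EIF4A2 34 and 29. Neither differed beyond counting error. EIF4B, which stimulates the helicase, had 3 and 3.

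EIF4A1, the main helicase of EIF4F, was the deepest gene listed in both tables with 8003 and 7088 reads, and only positions with 17 converted reads or more could be compared. It had 6 such sites in the RBFOX2 library, of which 3 were listed in both. The one at chr17:7577691 in the coding sequence lies 11 nt 3' of a UGCAUG and had 17 converted reads (0.212%, 0.124 to 0.340). Its absence from the enzyme-only table still allows 14 of 7088 (0.198%), so no difference was detectable there. Its neighbour at chr17:7577693 had 25 reads (0.312%) and 18 (0.254%), and a 3'UTR position at chr17:7578597 had 25 in each library. The region around the hexamer (chr17:7577663-7577692, plus strand) is shown because it held the only unshared site of 5 converted reads or more within 50 nt of UGCAUG, and the other 2 sequences are those of the most converted positions. Capitals mark the hexamer and the edited cytosines.
EIF4A1 UGCAUG: ucaccgagaagaUGCAUGcucgagauuuCa
EIF4A1 7577693: cucgagauuucaCuguauccgccau
EIF4A1 7578597: gucauuuuuuuuCuuugaauaaaug

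The elongation factors were the group with the least to compare. Only 3 of its 8 genes were listed in both tables, with 29 and 41 sites (-0.86, -1.60 to -0.14), and EEF1E1, a scaffold protein of the tRNA synthetase complex that carries an EEF symbol, gave 23 and 27 of them. EEF1B2, the exchange factor for EEF1A, had 4 and 8 sites. EEF1A2, the paralog of EEF1A1 typical of muscle and neurons, had 2 and 6 at 21 and 35 reads. EEF1A1, which brings aminoacyl-tRNA to the ribosome, had 11606 reads and 1 site in the RBFOX2 table, in the 3'UTR at chr6:73517635, with 30 converted reads (0.258%, 0.174 to 0.369). EEF2, the translocase, had 4870 reads and 2 sites, with 12 reads at chr19:3976280 (0.246%) and 10 at chr19:3976383 (0.205%). Both lie in the 3'UTR of its main transcript, and the first is coding in a shorter annotated transcript. EEF1A1 has many processed pseudogenes that can take some of its reads. Their edited cytosines, in capitals on the minus strand, all followed A or U.
EEF1A1 73517635: cacuuugguuuuCuuuuuugcgugu
EEF2 3976280: ggacacccaacaCuuuuuccauuuc
EEF2 3976383: uugaugccguuuCuuucaauauuua

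The release and recycling factors had 102 and 78 sites, in proportion to the library totals (0.02, -0.42 to 0.47). ABCE1 had the most sites of any factor gene in the RBFOX2 library, 54 against 35 (0.25, -0.38 to 0.92). ETF1, which reads the stop codon, had 37 and 39 (-0.44, -1.13 to 0.25). Its sites were placed differently, with 24 in the coding sequence and 13 in the 3'UTR in the RBFOX2 library, against 12 and 24 with the enzyme alone. Its strongest, in the 3'UTR at chr5:138508038, had 6 of 474 reads (1.27%, 0.466 to 2.73) and was not listed in the enzyme-only library, where 1 read would have been enough. GSPT1, the GTPase that works with ETF1, had 11 and 4 sites at a minimum of 2 reads (0.99, -0.66 to 3.20).

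Among the regulators, 11 genes listed in both tables held 129 and 99 sites (0.02, -0.37 to 0.41). EIF4EBP2, which holds EIF4E away from EIF4G1, had 12 and 28 sites at 301 and 272 reads (-1.55, -2.70 to -0.56), and its 3'UTR had 11 of them against 25. EIF4EBP1 had 4 and 4. EIF4ENIF1, which carries EIF4E into the nucleus, had 29 and 15 (0.56, -0.36 to 1.59). Here the coding sequence held 21 sites against 4 and the 3'UTR 6 against 11. Of the stress kinases, EIF2AK2 had 10 and 8 sites and EIF2AK4 7 and 1. EIF2AK1 had 1 and 32 table entries, but at its minimum of 2 reads only 0 and 2 unshared sites were left. EEF2KMT, a methyltransferase of EEF2, had 27 and 14 sites, of which 13 and 1 lay in the 3'UTR.

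UGCAUG, searched on the strand of the gene, occurs 58 times in the exons of 35 of the 63 genes. In the RBFOX2 library 33 of the 837 sites (3.94%, 2.73 to 5.49) lay within 50 nt along the genome of a UGCAUG of the locus, introns included, and in the enzyme-only library 20 of 725 (2.76%, 1.69 to 4.23). The hexamer was an exonic one for 29 of the 33 and 16 of the 20. Measured the same way, the exonic cytosines of the same genes gave 2.05% and 2.04%, so the observed share was 1.93 times the expected one (1.33 to 2.68) and 1.35 times (0.829 to 2.07). Over all protein-coding genes these values were 1.52 and 0.962. The counting intervals of the factor genes in the 2 libraries overlap. EIF1B alone gave 10 of the 33 sites and 1 of the 20. Without it the values were 1.53 (0.972 to 2.27) and 1.37 (0.830 to 2.13), so most of the gap between the libraries in factor genes was from this gene. Among sites of at least 2 converted reads the order was turned, with 0.964 and 2.34. Only 232 and 129 sites were left there, few of them near a hexamer, and no interval was computed.

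Of the 58 hexamers, 44 had no unshared site within 50 nt in either library, 8 had more in the RBFOX2 library, 4 had more in the enzyme-only library and 2 had the same number. After EIF1B, the hexamer in the 3'UTR of EIF2B1 had 4 unshared sites against 1, and that in the 3'UTR of EIF2S3 had 3 against 0. EIF4EBP2, a gene with fewer sites in the RBFOX2 library as a whole, had 3 against 2 at its 3'UTR hexamer. The hexamer of EIF4A2 went the other way with 1 against 5. The windows of the first 3 are shown because they held the most RBFOX2 sites of the 3'UTR hexamers outside EIF1B, with the hexamer and cytosines listed in the RBFOX2 library in capitals.
EIF2B1 (chr12:123621169-123621198, minus): gcaacaguauucUGCAUGguucaCugcuua
EIF2S3 (chrX:24077588-24077617, plus): ucuuugaaauuuUGCAUGaaaaggaaauga
EIF4EBP2 (chr10:70423290-70423319, plus): uaguuuugggugUGCAUGuuuggaguuugu
In the last 2 windows no listed cytosine lies within the 30 nt shown, and the sites counted are farther out.

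Sites of the RBFOX2 library had more converted reads and more often A or U before the cytosine, the context APOBEC1 prefers. At least 2 converted reads were found at 27.7% of factor gene sites in the RBFOX2 library (24.7 to 30.9) and at 17.8% in the enzyme-only library (15.1 to 20.8). All genes had 15.1% and 9.58%, ribosomal protein genes 30.9% and 23.0%, and the cytosolic aminoacyl-tRNA synthetase genes 32.1% and 24.6%. This share rises with depth, because every counted site has at least 2 converted reads in genes with a common minimum above 1. Such factor genes gave 170 of the 837 sites in the RBFOX2 library and 83 of the 725 with the enzyme alone. The difference between the libraries in this share is thus in part set by the minimum. A or U preceded 77.2% of sites (74.2 to 80.0) and 70.8% (67.3 to 74.0), while 50.6% and 50.2% of exonic cytosines have it. All genes had 71.7% and 64.1%. The order of the libraries was the same in all 4 sets of genes.

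Most factor gene sites lay in coding sequence, 59.1% for RBFOX2, against 61.4% with the enzyme alone. The 3'UTR held 35.2% (32.0 to 38.6) and 32.7% (29.3 to 36.2), less than in all genes, 42.3% and 36.2%. Relative to the exonic cytosines of the same genes, the 3'UTR share was 1.16 times (1.06 to 1.27) and 1.03 times (0.921 to 1.14). The coding share was 1.43 and 1.48 times, higher than the 3'UTR in both libraries. Over all protein-coding genes the 3'UTR values were 1.47 and 1.28. The 5'UTR held 25 sites in each library. Where transcripts disagree, a position was counted as coding, and this rule decided the order of the 2 regions.

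**Figure D5:**
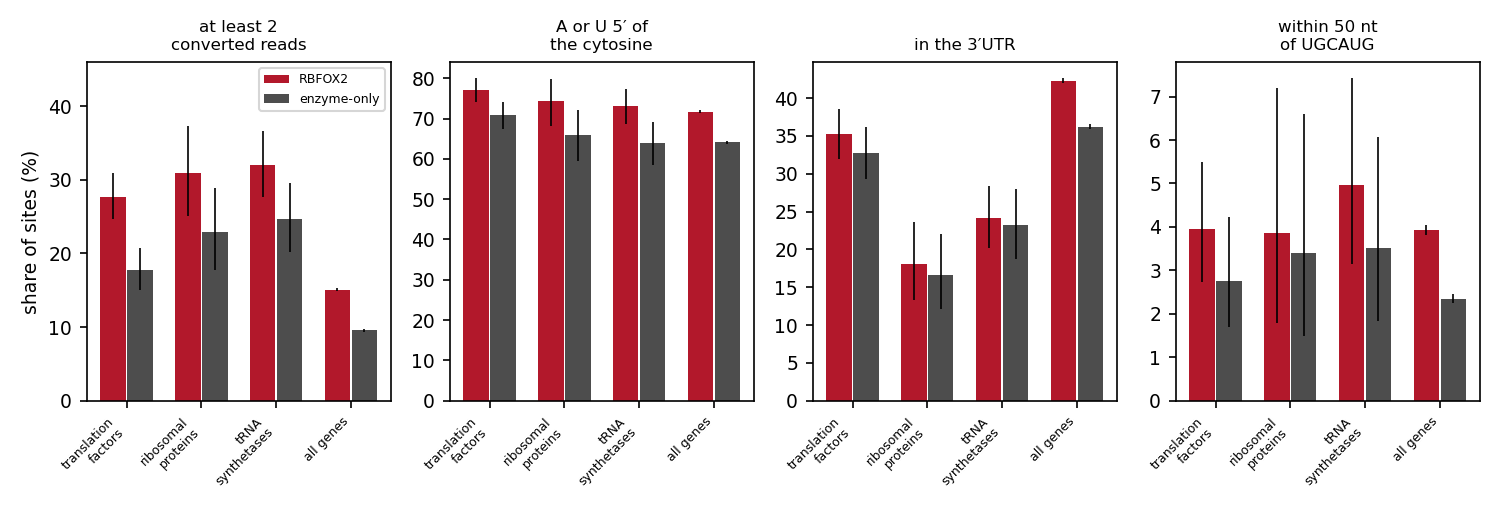
Share of sites (y axis, percent, one panel per measure) in the translation factors, ribosomal proteins, tRNA synthetases and all protein-coding genes, with the RBFOX2 library in red and the enzyme-only library in grey; error bars are 95% counting intervals. In the factor genes 27.7% against 17.8% of sites had at least 2 converted reads and 77.2% against 70.8% followed A or U.

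A C-to-U change in the coding sequence was read against the main transcript of each gene. Of 493 coding sites of the RBFOX2 library, 210 were synonymous, 237 would change an amino acid and 46 would create a stop codon. Of 439 in the enzyme-only library the numbers were 195, 217 and 27. The stop-creating share was 9.33% (6.91 to 12.2) and 6.15% (4.09 to 8.82), where all coding cytosines of these genes would give 8.40% and 8.03%. The intervals of the libraries overlap and each includes its expected value. EIF2B3 had 3 such sites in the RBFOX2 library at codons 236, 243 and 246, with 2, 3 and 1 converted reads of 224, and EIF4G2 had 3 with 3 or 4 of 1118. In EIF4A3 all 4 such sites were in the enzyme-only library.

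Positions listed in both libraries were weakly edited, with a median fraction of 0.312% and 0.287% and a highest one of 3.03% and 4%. Of the 163, 80 had 1 converted read in each library, so that the reads of the gene alone set which fraction is higher. Of the other 83, the fraction was higher in the RBFOX2 library at 59 and lower at 24. EIF4G2 gave 9 of the 59, and many of the rest differ by 1 converted read. The listing limit fixed the order of some pairs in advance. In EIF2S2 a listing takes 3 of 1048 reads (0.286%) in the RBFOX2 library. That is above the 2 of 718 (0.279%) that suffice with the enzyme alone. The same split over all protein-coding genes was not made, so the numbers are a description.

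Positions with at least 5 converted reads can be compared where the common minimum is 5 or less. With shared positions kept, such factor genes had 41 in 12 genes of the RBFOX2 library, against 4 in 4 genes with the enzyme alone. Without EIF4G2 the numbers were 21 and 3. All protein-coding genes of this kind had 1851 and 641, a ratio of 2.89. The factor gene count of the enzyme-only library is too small for a close ratio. EIF1AX, which stabilizes the scanning ribosome, had 2 such sites in its 3'UTR with 5 of 1887 reads each, EIF5, the GTPase activator of EIF2, had 3 with 5 of 1631, and EIF4G1 had 1 with 5 of 1123. None of these 6 was listed in the enzyme-only library, which allows up to 3 converted reads in EIF1AX and 2 in EIF5 and EIF4G1. Such pairs differ by few reads. In the other direction, EIF1 had a coding position at chr17:41689908 with 6 of 1492 reads in the enzyme-only library and no listing in the RBFOX2 library.

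Among isoforms, editsC is here the percent of an isoform's exonic cytosines that were unshared sites at the common minimum. The 53 genes had 1177 isoform models and 44245 exonic cytosines in merged exons, of which 1.89% (1.77 to 2.02) were edited with the RBFOX2 antibody, against 1.64% (1.52 to 1.76) with the enzyme alone. The median isoform had 2.54% and 1.54%. The RBFOX2 value was the higher one for 616 isoforms, the lower one for 373 and equal for 188. Isoforms of a gene share most of their sites and are not independent. Sites are listed per gene and were placed on each isoform model whose exons hold them. The editing of single isoforms was thus not measured. EIF4G2 had 42 of 45 isoforms higher in the RBFOX2 library, with medians of 5.25% and 0.159% and up to 18.9% in 1 isoform. The enzyme-only median leaves out the 20 positions of EIF4G2 with 2 converted reads. EIF3E had all 30 higher, with 10.9% and 1.64%, while EIF2D had all 25 lower, with 2.52% and 6.57%.

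Of 36 further genes that act with these factors, 35 had a locus and 16 had at least 20 sites. A log2 ratio above 1 was found for GCN1, MTIF3 and MRRF (18.8%) and one under -1 for DOHH and PELO (12.5%), near the 15.6% and 13.4% of all genes, with a median of -0.06. GCN1, which activates the kinase EIF2AK4, had 30 and 6 sites (1.87). MTIF3 and MRRF are the initiation and recycling factors of mitochondrial ribosomes, with 28 against 6 (1.77) and 22 against 8 (1.04). DOHH, the last enzyme of the hypusine modification of EIF5A, had 23 and 41 (-1.18). Of 11 aminoacyl-tRNA synthetase genes with as many sites, 1 (9.09%) was above 1 and none under -1, and of 8 ribosomal protein genes 2 (25%) and 3 (37.5%) were, counts too small to set against those shares.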

How the data were processed

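Edit sites were taken from 2 deposited tables, 1 per library, and grouped by the labels. Per the labels the libraries were made with a PacBio Iso-Seq kit, while the study's methods name a Kinnex kit, alignment of consensus reads to hg38 with pbmm2, custom scripts for the calls, and removal of edits seen in every sample and of dbSNP variants. For each site the authors deposited a count of converted reads and a count of reads of the whole gene, 1 per gene. They also deposited an edit fraction, the first count divided by the second, which was above 0.002 in every row, and a confidence fraction, not used here. Isoform coordinates came from a deposited GFF whose tool is not given in the sources used here.

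Genes and regions came from GENCODE 44 (bedtools 2.31.1, pysam 0.24.0). Sites whose strand differed from their locus were dropped, 5 of them in factor genes. Main values used unshared sites at the common minimum, a pseudocount of 0.5, scaling by library totals, 20 sites for a ratio and a window of 50 nt along the genome. The expected share was taken from the exonic cytosines of the gene a site lay in, averaged over sites. Intervals came from scipy 1.17.1, and those of ratios from the share of RBFOX2 sites. The ratio calculation was tested on simulated data.

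The factor genes, gene lists and comparisons were chosen with earlier results of these data known. Genes were named for most reads, the 5 highest and 5 lowest log2 ratios, a strong site near UGCAUG or of 10 converted reads, as paralogs of these, or as release factors. Others were named after their values were seen, among them EIF3A, EIF3B, EIF2B1, EIF2B3, EIF2B5 and EEF2KMT. One position that met this rule is not reported here.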

Additional observations from a re-analysis of the deposited data

Results flagged for a closer look

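Signal appeared in 4 factor genes that entered no comparison, because the enzyme-only table does not list them and gives no reads for them. EEF1A1 had 1 listed site in the RBFOX2 table, EEF1D had 1, EEF2 had 2 and EIF4H had 3. Whether the enzyme-only library had reads or edits of these genes under the listing limit was not tested.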

How the results depend on the processing

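No paired analysis was possible because there is 1 library per group and the labels number them 2 and 1. With at least 2 converted reads the factor genes had 232 RBFOX2 and 129 enzyme-only sites, and 310 and 174 with shared positions also kept, an alternative chosen after seeing the data. Scaling by gene reads moved the summed log2 ratio to 0.041 and raised the genes above 2-fold from 2 to 4. Counting a position as 3'UTR before coding gave 58.3% and 55.4% in the 3'UTR and 36.1% and 38.6% in coding sequence. For sites of at least 2 converted reads, the share near UGCAUG over its expectation was 0.964 (RBFOX2) and 2.34 (enzyme-only). Its order turned there, on 232 and 129 sites and without an interval. With GCAUG, chosen after seeing the data, it was 1.21 in the RBFOX2 library. A or U preceded 93.1% and 81.4% of sites of at least 2 converted reads, and 74.3% in the enzyme-only library with shared positions. Pooled editsC was 2.27% and 1.97% with shared positions, and 1.83% in the enzyme-only library with every listed site. EIF2D turned to 1.45 with shared positions and at least 2 converted reads, where it had 2 sites against none. EIF4G2 fell to 0.71 with every listed site, since 20 of its 26 enzyme-only sites had 2 converted reads, a number its RBFOX2 depth does not list, and was 1.87 with shared positions and at least 2 converted reads. EIF3E was 0.75 there. Of 150 single-gene values under other settings, 8 left their interval, among them those of EIF4G2 and EIF3E given here. A further 1, that of EIF2D, left it with a change of sign. Where no value or construction is given, the cause was not tested. Of 217 values under other settings, 189 stayed within the counting interval of the reported value or within 1.5 times the reported count.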

Other observations

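EEF1AKMT2, a lysine methyltransferase of EEF1A whose locus overlaps a second gene, had the highest edit fraction of the positions with at least 5 converted reads. At chr10:124765453, in its coding sequence, 5 of 30 reads were converted in the RBFOX2 library (16.7%, 5.64 to 34.7), and it was not listed among 22 reads of the enzyme-only library. The gene was singled out after its values were seen, and its depth was among the lowest of the factor genes.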
